A study of Mus musculus with 12 samples.

Results

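The genes described here encode the enzymes that write, copy and remove methylation of cytosine in DNA. They are the DNA methyltransferase genes Dnmt1, Dnmt3a, Dnmt3b and Dnmt3l, the dioxygenase genes Tet1, Tet2 and Tet3, and Uhrf1. They were chosen by name, with earlier results of these data known, and all 8 were found among the 19938 genes measured on Affymetrix arrays. RNA came from 12 samples of a clone of D3, a mouse embryonic stem (ES) cell line, in 4 groups of 3 that the labels call biological replicates. ATRA samples were embryoid bodies (EBs, aggregates of ES cells grown without the cytokine LIF) given all-trans retinoic acid, a signalling form of vitamin A, for 12 h at the 5 micromolar the labels state. DMSO samples were EBs given the solvent for 12 h. EB samples were untreated EBs at day 4, and ES samples were undifferentiated cells at day 0. Whether those 12 h belonged to the 4 days or followed them is open in the labels. All groups came from this single clone and carried no labelled mutation, so a difference between clones was not measured.

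In mammals, Dnmt3a and Dnmt3b add methyl groups to unmethylated cytosines, mostly in CG dinucleotides, and Dnmt3l, which has no catalytic activity of its own, binds both and raises their activity. Dnmt1 copies the pattern onto the new strand after DNA replication, guided there by Uhrf1, which recognises the half-methylated site. Tet enzymes oxidise methylcytosine as a step toward its removal. Mouse ES cells are known for high Tet1 and Tet2, and the implanting epiblast for a wave of new methylation with high Dnmt3b and Dnmt3l.

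Among the 8, the largest differences for ATRA against DMSO were those of the 3 de novo methylation genes. In EBs at day 4, Dnmt3l, Dnmt3b and Dnmt3a were all higher than in ES cells. With ATRA, Dnmt3l fell 2.17-fold and Dnmt3b 1.45-fold against DMSO, while Dnmt3a rose 1.19-fold. Dnmt1, Uhrf1 and the 3 Tet genes did not pass the test for ATRA against DMSO. These are levels of RNA in whole samples, in which fewer cells of a type and less RNA per cell cannot be told apart, and methylation itself was not measured.

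The RefSeq promoter windows of these 3 genes in build GRCm38.p6 are shown because their RNAs carry the result, Dnmt3l and Dnmt3b moving together and Dnmt3a apart from them. Each window holds 250 bases before and 50 after an annotated start, written 5′ to 3′ on the gene's strand, and capitals mark CG dinucleotides. Where RefSeq gives several starts, the window with the most CG is shown. The arrays do not tell which start was used. The windows are chr10:78042037-78042336 for Dnmt3l, chr2:153649199-153649498 for Dnmt3b and chr12:3806910-3807209 for Dnmt3a, all on the plus strand.
Dnmt3l: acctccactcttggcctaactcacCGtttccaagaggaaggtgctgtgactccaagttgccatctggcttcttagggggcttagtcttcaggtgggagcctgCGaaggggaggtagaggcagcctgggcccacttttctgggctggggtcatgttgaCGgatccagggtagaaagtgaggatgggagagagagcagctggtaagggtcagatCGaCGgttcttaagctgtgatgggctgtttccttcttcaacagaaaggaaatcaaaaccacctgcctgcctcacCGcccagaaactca
Dnmt3b: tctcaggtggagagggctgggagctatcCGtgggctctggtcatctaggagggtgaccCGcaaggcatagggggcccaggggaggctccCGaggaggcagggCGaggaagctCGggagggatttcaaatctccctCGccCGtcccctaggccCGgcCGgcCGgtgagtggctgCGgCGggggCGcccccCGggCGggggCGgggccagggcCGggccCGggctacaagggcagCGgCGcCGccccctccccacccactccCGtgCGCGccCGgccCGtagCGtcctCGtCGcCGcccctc
Dnmt3a: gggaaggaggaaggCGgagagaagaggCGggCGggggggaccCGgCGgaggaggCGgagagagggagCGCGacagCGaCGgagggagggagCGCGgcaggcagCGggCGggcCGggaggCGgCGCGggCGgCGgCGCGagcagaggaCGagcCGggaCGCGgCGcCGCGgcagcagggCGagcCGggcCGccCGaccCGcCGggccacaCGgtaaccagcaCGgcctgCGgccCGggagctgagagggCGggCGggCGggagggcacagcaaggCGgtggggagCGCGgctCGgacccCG
The Dnmt3l window held 6 CG dinucleotides, the Dnmt3b window 30 and the Dnmt3a window 47, where the median of 32851 mouse windows was 7. At least as many CG were found in 56.4% of all windows for Dnmt3l, 11.7% for Dnmt3b and 1.44% for Dnmt3a. The pair that moved together thus differed in CG content. The other annotated starts of Dnmt3l had 4 and 3 CG, and those of Dnmt3a had 46 and 18. The GC box GGGCGG, searched on both strands with overlaps counted, occurred 1 time in the Dnmt3l window, 4 times in that of Dnmt3b and 7 times in that of Dnmt3a, and 35.7% of all windows held it. The half-site AGGTCA, bound by retinoic acid receptors among other nuclear receptors, was in 0 of these 3 windows and in 16.3% of all windows. It occurred 1 time at another annotated start of Dnmt3a (chr12:3891494-3891793), and in 0 of the other windows of Dnmt3l. The half-site also occurred 1 time in the Tet1 window and 1 time in a Uhrf1 window (chr17:56304063-56304362). Only exact letters were searched, in windows of 300 bases, so variant half-sites and sites elsewhere were not covered. A part of the half-site in the response to ATRA was not tested. Direct repeats of AGGTCA with 5 or 2 bases between the copies were in 0 of the 15 windows of the 8 genes, and each was in 0.00913% of all windows.

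Before the results, the labelled cell type was read from its markers. All 10 pluripotency markers were measured, and the lowest group mean among them was 10.88 on the array's log2 scale, which ran from 2.30 to 14.7. Of these 10 markers, 1 rose and 4 fell with ATRA against DMSO, and 3 rose and 2 fell in EBs against ES cells. Their summed level (log2 of the summed linear values) was 16.10 to 16.12 with ATRA, 16.18 to 16.21 with DMSO, 16.15 to 16.22 in EBs and 16.09 to 16.14 in ES cells. Replicate arrays correlated at 0.992 to 0.997. Fibroblast markers, which a feeder layer could supply, had a summed level over 13 genes of 13.56 to 13.62 with ATRA, 13.75 to 13.83 with DMSO, 13.82 to 13.86 in EBs and 14.72 in all 3 ES arrays. Of these 13 genes, 2 rose and 5 fell with ATRA against DMSO, and 0 rose and 11 fell in EBs against ES cells. The summed level of 12 visceral endoderm markers, an outer layer of EBs, was 14.52 to 14.68 with ATRA, 14.70 to 14.88 with DMSO, 14.41 to 14.59 in EBs and 13.14 to 13.17 in ES cells. All 12 rose in EBs against ES cells, and with ATRA against DMSO 1 rose and 5 fell. The lowest group mean was 4.66 among fibroblast markers and 6.66 among endoderm markers, below the array medians of 7.76 to 7.86. Since the lowest value of any array was 2.30, absence of a marker could not show as a 0. Of all genes, 6.26% were called higher and 7.05% lower for ATRA against DMSO, and 17.8% higher and 16.9% lower for EB against ES. The part of these 3 marker lists in the results below was not tested.

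**Figure D1:**
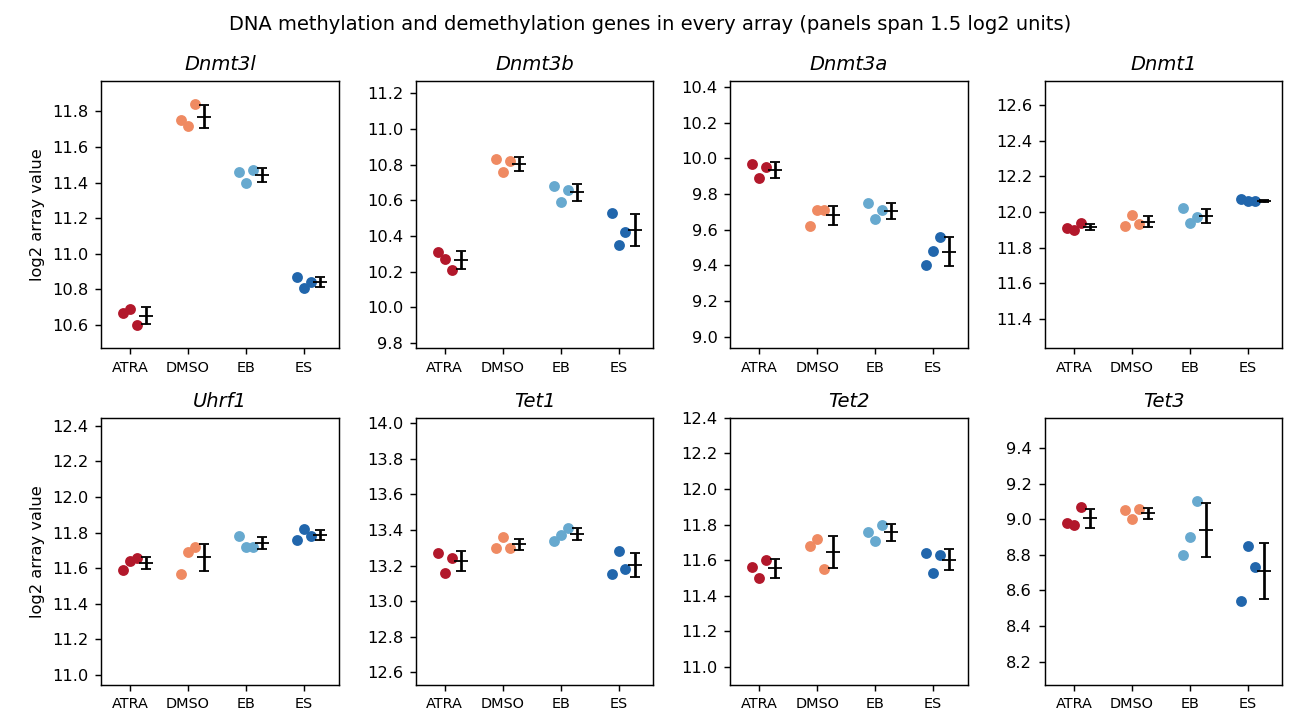
Log2 array values of the 8 genes, a panel each, with every panel spanning 1.5 log2 units. Points are the 3 arrays of ATRA-treated EBs, DMSO-treated EBs, untreated day 4 EBs and ES cells, and the bar beside them is the mean ± SD; Dnmt3l and Dnmt3b are lowest with ATRA and highest with DMSO, and Dnmt3a is highest with ATRA.

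Dnmt3l, the cofactor gene (chromosome 10, 78042287 to 78063622 in GRCm38.p6), had the widest range of the 8. It stood at 10.67, 10.69 and 10.60 in the ATRA arrays, at 11.75, 11.72 and 11.84 with DMSO, at 11.46, 11.40 and 11.47 in day 4 EBs and at 10.87, 10.81 and 10.84 in ES cells. The 4 groups did not overlap, and the ATRA arrays were lowest, below ES cells. For ATRA against DMSO the log2 difference was -1.12 ± 0.05 (SE, n = 3 per group), with limma's adjusted p = 2.09e-08, and 99.7% of genes changed less in size. Against day 4 EBs, Dnmt3l in ATRA-treated EBs fell by 0.79 ± 0.05 on the log2 scale (adjusted p = 4.22e-07). In EBs it rose 1.52-fold against ES cells, by 0.60 ± 0.05 (adjusted p = 7.78e-07). It was also the single member called for DMSO against EB, higher by 0.33 ± 0.05 (adjusted p = 0.0130), where 0.747% of all genes were called and 0.537% were called higher. The 3 and 3 arrays of that comparison did not overlap for 3 of the 8 members, against 22.4% of all genes. That call ended when EB replicate 1, EB replicate 2, DMSO replicate 1 or DMSO replicate 3 was left out (adjusted p of 0.0562 to 0.0877), with values of 0.29 to 0.34 on the log2 scale. In the order DMSO, EB, ES, ATRA, each neighbouring pair passed the test. The smallest of these differences, for ATRA against ES, was -0.19 ± 0.05 (adjusted p = 0.00736), and its call ended after median centring of the arrays (adjusted p = 0.0882).

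Dnmt3b, the methyltransferase gene of the early embryo (chromosome 2, 153649411 to 153687730), followed the same order with smaller steps. Its values were 10.31, 10.27 and 10.21 with ATRA, 10.83, 10.76 and 10.82 with DMSO, 10.68, 10.59 and 10.66 in EBs and 10.53, 10.35 and 10.42 in ES cells. The ATRA arrays lay below every other array, and the DMSO arrays above every other one. The log2 difference was -0.54 ± 0.05 for ATRA against DMSO (adjusted p = 2.84e-05) and -0.38 ± 0.05 for ATRA against EB (adjusted p = 4.03e-04). In EBs it was higher than in ES cells by 0.21 ± 0.05 (adjusted p = 0.00918), and that call ended with the arrays of these 2 groups fitted alone (adjusted p = 0.0513). DMSO against EB did not pass, at 0.16 ± 0.05 (adjusted p = 0.180), although the arrays did not overlap. ATRA against ES was -0.17 ± 0.05 (adjusted p = 0.0257), and the call ended in 7 of 16 alternative settings, among them the omission of ES replicate 1, ES replicate 3, ATRA replicate 2 or ATRA replicate 3 (values of -0.18 to -0.12) and median centring. Over the 12 arrays the Pearson correlation of Dnmt3b with Dnmt3l was 0.97, a description of arrays that share groups.

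Dnmt3a, the other catalytic de novo gene (chromosome 12, 3801559 to 3914443), ran differently with ATRA. It stood at 9.97, 9.89 and 9.95 with ATRA, at 9.62, 9.71 and 9.71 with DMSO, at 9.75, 9.66 and 9.71 in EBs and at 9.40, 9.48 and 9.56 in ES cells. ATRA arrays were above all others, DMSO and EB arrays overlapped, and ES arrays were lowest. ATRA against DMSO gave 0.25 ± 0.05 (adjusted p = 0.00626), ATRA against EB 0.23 ± 0.05 (adjusted p = 0.00884) and EB against ES 0.23 ± 0.05 (adjusted p = 0.00463). DMSO against EB was -0.02 with a 95% interval of -0.14 to 0.09. The probe set does not separate the long and short Dnmt3a transcripts, which start at different promoters.

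The unequal change of these 2 genes was read within each array. Log2 Dnmt3a minus log2 Dnmt3b was -0.39 to -0.27 with ATRA and -1.21 to -1.05 with DMSO, a difference of 0.79 between group means. The arrays did not overlap, and the two-sided exact permutation p was 0.1, the smallest that 3 against 3 arrays allow. For EBs and ES cells the same quantity was -0.95 to -0.93 and -1.13 to -0.86, which overlapped (difference 0.02, exact permutation p = 1). Dnmt3a alone lay above and Dnmt3b alone below without overlap for ATRA against DMSO. The separation of their difference was therefore fixed in advance and adds no support of its own. No separation was seen between EBs and ES cells.

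**Figure D2:**
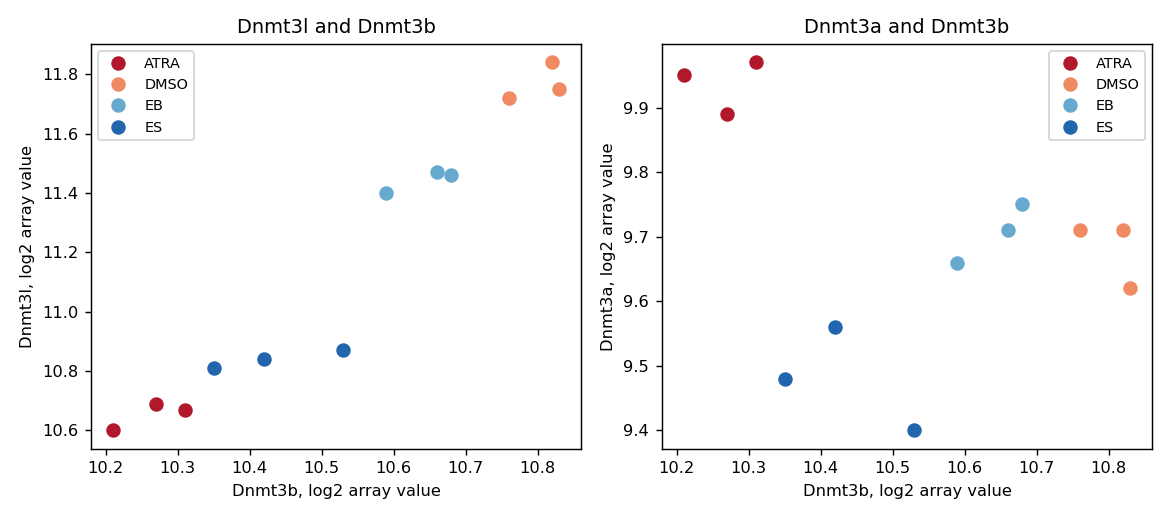
Each point is 1 of the 12 arrays, coloured by group, with log2 Dnmt3b on the x axis and log2 Dnmt3l (left) or log2 Dnmt3a (right) on the y axis. Dnmt3l lines up with Dnmt3b over all 4 groups (Pearson r = 0.97), while in the Dnmt3a panel the ATRA arrays stand at the top left, with the highest Dnmt3a and the lowest Dnmt3b.

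Neither gene of the maintenance pair was called for ATRA against DMSO. Dnmt1 (chromosome 9, 20907206 to 20959888) stood at 11.91, 11.90 and 11.94 with ATRA, at 11.92, 11.98 and 11.93 with DMSO, at 12.02, 11.94 and 11.97 in EBs and at 12.07, 12.06 and 12.06 in ES cells. The ES arrays were above the other 9, whose groups overlapped except for ATRA below EB. ATRA against DMSO was -0.03 with a 95% interval of -0.12 to 0.06 on the log2 scale (adjusted p = 0.681). The difference from ES cells was -0.15 ± 0.04 with ATRA (adjusted p = 0.0132) and -0.11 ± 0.04 with DMSO (adjusted p = 0.0401). The call for ATRA against ES ended after median centring (-0.10, adjusted p = 0.183). The call for DMSO against ES ended in 10 of 16 alternative settings, among them the omission of ES replicate 1, ES replicate 2, ES replicate 3, DMSO replicate 1 or DMSO replicate 3 (values of -0.12 to -0.10). EB against ES, at -0.09 ± 0.04, did not pass (adjusted p = 0.129).

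Uhrf1 (chromosome 17, 56303337 to 56323486) stood at 11.59, 11.64 and 11.66 with ATRA, at 11.57, 11.69 and 11.72 with DMSO, at 11.78, 11.72 and 11.72 in EBs and at 11.76, 11.82 and 11.78 in ES cells. ATRA arrays overlapped those of DMSO and lay below those of ES cells. ATRA against DMSO was -0.03 with a 95% interval of -0.13 to 0.08 (adjusted p = 0.748). ATRA against ES passed at -0.15 ± 0.05 (adjusted p = 0.0245), and this call ended in 7 of 16 alternative settings, among them the omission of ES replicate 2, ES replicate 3, ATRA replicate 1 or ATRA replicate 2 (values of -0.16 to -0.13). Both genes serve replicating DNA, and the S phase and mitosis list, 19 genes measured, had 0 higher and 0 lower for ATRA against DMSO and 1 higher and 8 lower for EB against ES. Its summed log2 level was 16.37 to 16.40 with ATRA, 16.39 to 16.41 with DMSO, 16.36 to 16.42 in EBs and 16.49 to 16.51 in ES cells. Of all genes, 6.26% were called higher and 7.05% lower for ATRA against DMSO, and 17.8% higher and 16.9% lower for EB against ES.

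Of the Tet genes, Tet1 (chromosome 10, 62804570 to 62887469) stood at 13.27, 13.16 and 13.24 with ATRA, at 13.30, 13.36 and 13.30 with DMSO, at 13.34, 13.37 and 13.41 in EBs and at 13.15, 13.28 and 13.18 in ES cells. ATRA and ES arrays overlapped, and both groups lay below EBs. EB against ES was 0.17 ± 0.05 (adjusted p = 0.0152), a 1.13-fold rise, and the call ended without ES replicate 3 or EB replicate 3 (values of 0.16 and 0.15) and with these 2 groups fitted alone (adjusted p = 0.0677). ATRA against DMSO, at -0.09 ± 0.05, did not pass (adjusted p = 0.259). ATRA against EB was just outside the threshold at -0.15 ± 0.05 (adjusted p = 0.0509) and passed in 5 of 16 alternative settings. Tet1 has 2 further probe sets, and both were called lower for ATRA against EB, at -0.27 ± 0.05 (adjusted p = 0.00411) and -0.20 ± 0.05 (adjusted p = 0.0221). Both were also called higher for EB against ES, at 0.29 ± 0.05 (adjusted p = 0.00103) and 0.23 ± 0.05 (adjusted p = 0.00485), so the 3 probe sets gave 1 direction in each of these comparisons. DMSO against ES did not pass for the probe set kept, at 0.12 ± 0.05 (adjusted p = 0.0830). The 2 further probe sets were called higher there, at 0.17 ± 0.05 (adjusted p = 0.0247) and 0.16 ± 0.05 (adjusted p = 0.0323).

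Tet2 (chromosome 3, 133463677 to 133545136) stood at 11.56, 11.50 and 11.60 with ATRA, at 11.68, 11.72 and 11.55 with DMSO, at 11.76, 11.71 and 11.80 in EBs and at 11.64, 11.53 and 11.63 in ES cells. EB arrays were above those of ATRA and ES, and DMSO replicate 3 fell among the ATRA values. It fell 1.15-fold for ATRA against EB, by 0.20 ± 0.06 (adjusted p = 0.0252), and that call ended without EB replicate 1, EB replicate 3, ATRA replicate 1 or ATRA replicate 2 (values of -0.20 to -0.18) and after median centring (-0.19, adjusted p = 0.0770). ATRA against DMSO (-0.09 ± 0.06, adjusted p = 0.323) and EB against ES (0.15 ± 0.06, adjusted p = 0.0517) did not pass. Tet2 gained the call for EB against ES in 6 of 16 alternative settings. Log2 Tet1 minus log2 Tet2 was 1.64 to 1.71 with ATRA and 1.63 to 1.75 with DMSO, and 1.58 to 1.67 in EBs and 1.51 to 1.74 in ES cells. Neither pair of groups differed beyond its spread (exact permutation p = 1 and p = 0.9), and these differences set no level of Tet1 against that of Tet2.

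Tet3, the Tet gene best known from the oocyte and zygote (chromosome 6, 83362373 to 83457208), had the largest scatter between replicates. It stood at 8.98, 8.97 and 9.07 with ATRA, at 9.05, 9.0 and 9.06 with DMSO, at 8.80, 8.90 and 9.10 in EBs and at 8.54, 8.85 and 8.73 in ES cells. Only ATRA and DMSO arrays lay wholly above those of ES cells. ATRA against ES was 0.30 ± 0.08 (adjusted p = 0.0149) and DMSO against ES 0.32 ± 0.08 (adjusted p = 0.00853). The call for ATRA against ES ended without ES replicate 1 (0.21) or ATRA replicate 3 (0.27). EB against ES was 0.23 ± 0.08 (adjusted p = 0.0540), while the other Tet3 probe set was called there at 0.26 ± 0.08 (adjusted p = 0.0248). Tet3 gained the call for EB against ES in 10 of 16 alternative settings. ATRA against DMSO was -0.03 with a 95% interval of -0.21 to 0.15 (adjusted p = 0.868).

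**Figure D3:**
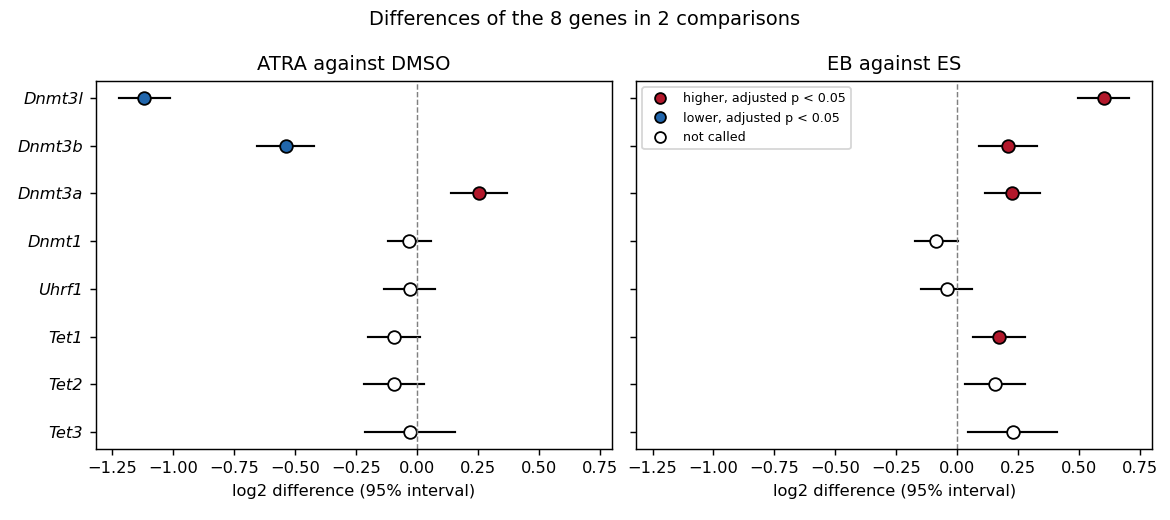
Log2 differences of the 8 genes for ATRA against DMSO (left) and EB against ES (right), with 95% intervals from the fit to 12 arrays; filled points passed an adjusted p of 0.05. For ATRA against DMSO, Dnmt3l (-1.12) and Dnmt3b (-0.54) lie left of 0 and Dnmt3a (0.25) right of it, and for EB against ES the 4 called genes are all right of 0.

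Over the 8 genes, 3 were called for ATRA against DMSO, 1 higher and 2 lower, where 13.3% of all genes were called, 6.26% higher and 7.05% lower. The 3 and 3 arrays did not overlap for 4 of the 8, against 39.6% of all genes, so that count alone is near the background. For EB against ES, 4 were called, all higher, where 34.7% of genes were called and 17.8% were called higher, and 6 did not overlap (41.3% of all genes). For ATRA against EB, 4 were called, 1 higher and 3 lower (18.4% of all genes, 7.79% higher and 10.6% lower), and 7 did not overlap (36.7% of all genes). For ATRA against ES, 6 were called, 2 higher and 4 lower (36.6% of all genes, 17.5% higher and 19.1% lower), and 6 did not overlap (47.4% of all genes). For DMSO against ES, 5 were called, 4 higher and 1 lower (39% of all genes, 18.4% higher and 20.6% lower), and 7 did not overlap (47.5% of all genes). The median difference of the 8 was -0.06 for ATRA against DMSO and 0.19 for EB against ES, beside 0.01 and -4e-04 over all genes. Comparisons that share a group share its arrays and are not independent of each other.

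Of 18 measured genes for proteins that guide or limit the methyltransferases, 0 rose and 1 fell for ATRA against DMSO (all genes: 6.26% called higher, 7.05% lower). That gene was Cdca7, which works with the remodelling enzyme Hells in maintaining methylation, at -0.32 ± 0.05 (adjusted p = 0.00134). Its means were 12.00 ± 0.05 with ATRA and 12.32 ± 0.03 with DMSO (SD, n = 3 each). Hells itself was at -0.18 ± 0.07 (adjusted p = 0.0947). Prdm14, a repressor of Dnmt3b and Dnmt3l in mouse ES cells, was at -0.09 ± 0.07 (adjusted p = 0.460). Dppa3, which keeps Uhrf1 from chromatin in the oocyte, was at -0.06 ± 0.13 (adjusted p = 0.832). The group means of Dppa3 were 6.23 to 6.38, below the array medians of 7.76 to 7.86, so its lack of change says little. For EB against ES, 3 of the 18 rose and 4 fell, where 17.8% of all genes were called higher and 16.9% lower. Nsd1, whose histone mark recruits Dnmt3a, rose by 0.39 ± 0.05 (adjusted p = 2.72e-05), Prdm14 rose by 0.23 ± 0.07 (adjusted p = 0.0219), and the Cdca7 relative Cdca7l (-0.50 ± 0.05) and the Uhrf1 relative Uhrf2 (-0.27 ± 0.05) fell.

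Among Tet partners and base excision genes, 2 of 17 rose and 1 fell for ATRA against DMSO (all genes: 6.26% called higher, 7.05% lower). Gadd45b, a stress gene linked to active demethylation, had means of 11.01 ± 0.04 with ATRA, 10.16 ± 0.14 with DMSO, 10.09 ± 0.11 in EBs and 10.09 ± 0.02 in ES cells. It was high with ATRA and overlapped among the other 3 groups. Its rise was 0.85 ± 0.07 (adjusted p = 6.69e-06). Hmces, which shields abasic sites and was first described as a binder of hydroxymethylcytosine, was at 11.62 ± 0.02 with ATRA, 12.23 ± 0.07 with DMSO, 12.26 ± 0.06 in EBs and 11.87 ± 0.05 in ES cells. It fell by 0.62 ± 0.05 for ATRA against DMSO (adjusted p = 6.92e-06) and rose by 0.39 ± 0.05 for EB against ES (adjusted p = 7.84e-05), the directions of Dnmt3l and Dnmt3b. The glycosylase gene Neil3 rose slightly with ATRA, by 0.21 ± 0.06 (adjusted p = 0.0356). For EB against ES, 7 of the 17 rose and 2 fell, where 17.8% of all genes were called higher and 16.9% lower. Neil2 (0.41 ± 0.06), Ogt, the gene of a Tet-binding sugar transferase (0.36 ± 0.05), and Gadd45a (0.53 ± 0.08) were higher and Gadd45g (-0.38 ± 0.06) lower.

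Of 10 genes listed as methyl-CpG readers, their relatives or their partners, 2 rose and 1 fell for ATRA against DMSO (all genes: 6.26% called higher, 7.05% lower). The list mixes proteins that bind methyl-CpG with relatives and complex subunits, so its counts do not describe readers alone. The reader genes Zbtb33 (means 9.45 with ATRA and 9.55 with DMSO), Zbtb4 (8.36 and 8.30) and Zbtb38 (10.39 and 10.47) were not called there. Mbd6 rose by 0.66 ± 0.07 (adjusted p = 3.23e-05) and Mbd3, a subunit of the NuRD repressor complex, by 0.18 ± 0.05 (adjusted p = 0.0208), while the deacetylase gene Hdac2 fell by 0.23 ± 0.06 (adjusted p = 0.0295). For EB against ES 3 rose, Zbtb38, Hdac2 and Gatad2a, and 0 fell (all genes: 17.8% called higher, 16.9% lower). Of 13 genes that supply the methyl donor or 2-oxoglutarate, the substrate of Tet enzymes, 1 rose and 1 fell with ATRA against DMSO. These were the folate enzyme gene Mthfd2 (0.32 ± 0.07) and Mat2b (-0.25 ± 0.06), the regulatory subunit gene of the enzyme that makes S-adenosylmethionine. For EB against ES, 6 of the 13 rose and 1 fell, with Idh2, which makes 2-oxoglutarate in mitochondria, up by 0.39 ± 0.05 and Shmt2 up by 0.52 ± 0.07.

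Germ line genes are known to be silenced by promoter methylation in somatic tissue, which was not measured here. For EB against ES, 1 of 14 rose and 7 fell, where 16.9% of all genes were called lower. Mael, a transposon-silencing gene, averaged 8.52 ± 0.18 in EBs and 9.78 ± 0.21 in ES cells, a fall of 1.26 ± 0.11 (adjusted p = 1.50e-06). Slc25a31 fell by 1.53 ± 0.13, Dazl, the gene of a germ cell RNA-binding protein, by 0.87 ± 0.06 and Tex11 by 0.75 ± 0.13, while Dpep3 rose by 0.29 ± 0.07. Some of these levels were low: Tex11 averaged 6.51 in EBs and 7.25 in ES cells, below the array medians of 7.76 to 7.86. Slc25a31 averaged 6.82 in EBs and 8.35 in ES cells. For ATRA against DMSO, 2 of 14 rose and 0 fell, where 6.26% of all genes were called higher. Dazl averaged 9.17 ± 0.01 with ATRA and 8.78 ± 0.10 with DMSO, a rise of 0.38 ± 0.06 (adjusted p = 0.00159), and Hormad1 rose by 0.30 ± 0.09 (adjusted p = 0.0387). The median of the 14 was 0.12 for ATRA against DMSO and -0.21 for EB against ES, beside 0.01 and -4e-04 over all genes.

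**Figure D4:**
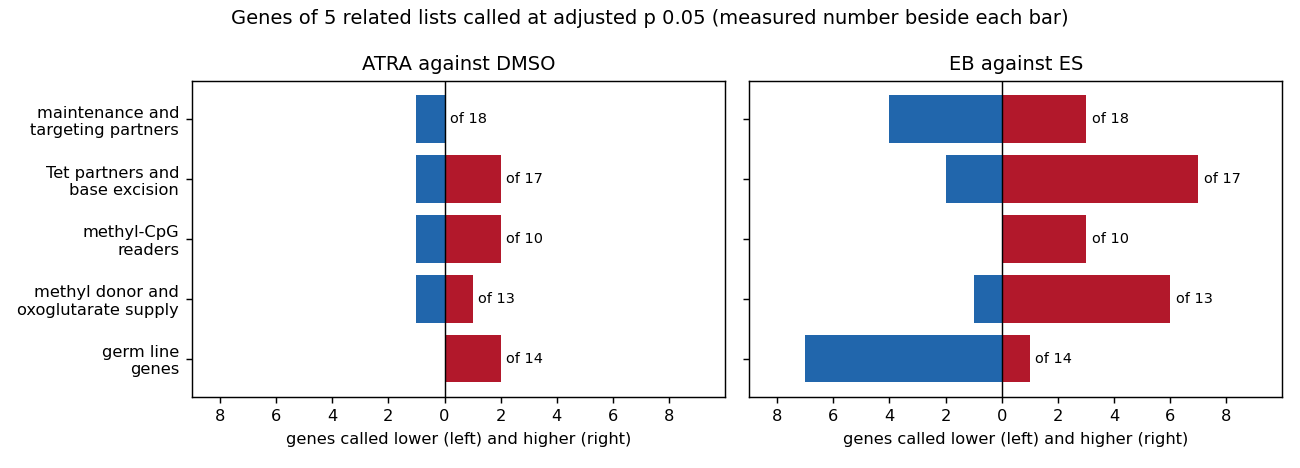
Number of genes called lower (left, blue) and higher (right, red) at an adjusted p of 0.05 in 5 related lists, for ATRA against DMSO and for EB against ES, with the number measured beside each bar. With ATRA at most 2 genes of a list moved in 1 direction, and for EB against ES 7 germ line genes were lower and 7 Tet partner and base excision genes higher. Over all genes, 6.26% were called higher and 7.05% lower for ATRA against DMSO, and 17.8% and 16.9% for EB against ES.

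The genes most like each member over the 12 arrays, by Pearson r of log2 values, are given as a description of arrays that share groups. For Dnmt3l they were Fbxo22 (r = 0.98) and Ext1 (r = 0.97), and for Dnmt3b Stk17b (r = 0.97) and Dnmt3l (r = 0.97). Ext1 averaged 10.60 ± 0.02 with ATRA, 11.27 ± 0.04 with DMSO, 11.19 ± 0.05 in EBs and 10.69 ± 0.07 in ES cells (SD, n = 3 each). Dnmt3a was closest to Notch4 and Nfe2l1 (r = 0.98 for both), Dnmt1 to Mrpl33 and Nop2 (r = 0.97 for both), and Uhrf1 to Trim28 (r = 0.97) and Qtrt2 (r = 0.93). Trim28, a corepressor that keeps methylation at imprinted sites, was on the list of guiding proteins. Tet1 was closest to Pitpnc1 (r = 0.96) and Eppk1 (r = 0.95), Tet2 to Smarcad1 and Smc6 (r = 0.95 for both) and Tet3 to Dmwd (r = 0.94) and Sil1 (r = 0.93). Among the members, Dnmt1 with Uhrf1 (r = 0.84) came next after Dnmt3b with Dnmt3l, and Dnmt1 ran against Tet3 (r = -0.79) and Dnmt3a (r = -0.78).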

How the data were processed

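The authors deposited 1 table of log2 values, 35556 probe sets in 12 arrays. The log2 scale is read from the values (2.30 to 14.7). Background correction, normalization and summarization were steps not given in the sources used here. Array medians were 7.76 to 7.86, and whether the arrays had been scaled to each other was not settled from the values. Per the labels' protocols, biotinylated cDNA was made from total RNA.

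Of the probe sets, 21789 had exactly 1 symbol in the platform annotation, 1621 several and 12146 none listed. For each of 19938 genes, the probe set of highest mean over the 12 arrays was kept among those with 1 symbol, and low values were not filtered. RefSeq (GRCm38.p6) held the identifiers of 21698 of these probe sets, and 0 symbols changed. Promoter sequences are RefSeq's, and all 8 members matched. Not every list gene was measured, and those without a value are not analysed here.

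A model with 1 mean for each group was fitted to the 12 arrays (limma 3.58.1, R 4.3.3; lmFit, then eBayes, 8 residual and 3.93 prior degrees of freedom). Tests were two-sided, for 6 pairwise comparisons. Benjamini-Hochberg adjustment ran over all genes, with a threshold of 0.05. Differences between 2 members within arrays had an exact permutation test. The code was tested on simulated data. What the p-values weigh is the spread of 3 labelled biological replicates a group, taken over all 4 groups, and the number of arrays limits the precision. The members and lists were chosen with earlier results of these data known. Named list genes are those called with the smallest adjusted p, partners of a member, and the 2 genes of highest correlation with each member. Not every gene that this allows is printed. Alternatives were quantile normalization, median centring, averaging a gene's probe sets, keeping only genes at or above the median level, an intensity trend with robust prior, array weights, a fit to just the pair of groups, a replicate block, omission of each array in turn, and an adjusted p of 0.01. The joint omission of ES replicate 2 with EB replicate 2 was chosen after seeing the data.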

Additional observations from a re-analysis of the deposited data

How the results depend on the processing

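For ATRA against DMSO, Dnmt3l (-1.14 to -1.08), Dnmt3b (-0.56 to -0.51) and Dnmt3a (0.22 to 0.28) kept their direction and call in all 16 alternatives, as did Dnmt3l (0.59 to 0.63) and Dnmt3a (0.16 to 0.27) for EB against ES. Over all members and comparisons, 682 of the alternative values kept direction and side of the threshold, 48 lost the call, 34 gained one, and 4 uncalled values changed sign. The level filter, the trend and robust prior, the pair-only fit, the replicate block and the 0.01 threshold leave each log2 difference unchanged. So does averaging probe sets, except for Tet1 and Tet3, and the joint omission for ATRA against DMSO. In these settings direction could not change, and only the call could. Members called numbered 2 for ATRA against ES after median centring and 2 at an adjusted p of 0.01 (6 as reported). There, 6955 and 5342 of 19938 genes were called (7306 as reported). For EB against ES, 7 members were called with the trend and robust prior and 2 with only those groups (4 as reported). The genes called in those settings numbered 7396 and 5277 of 19938 (6925 as reported). For DMSO against EB the reported 1 member, Dnmt3l, became 0 with only those groups, at 0.01, and without ES replicate 2 and EB replicate 2. Limma then gave 2, 2 and 3 members at an unadjusted p under 0.05. With 1 array left out, 0 to 1 members were called there. Genes called for DMSO against EB, 149 as reported, were 253 after quantile normalization, 761 above the median of mean value, 626 with the trend and robust prior, 25 with only those groups, 62 with the replicate block, 5 at 0.01, 27 without ES replicate 2 and EB replicate 2, and 0 to 128 with 1 array left out (0 in limma without EB replicate 1 or DMSO replicate 1, where 3080 and 2340 genes had an unadjusted p under 0.05). Array weights gave 4311 genes for ATRA against DMSO (2655 as reported) and 11052 for ATRA against ES (7306 as reported). At 0.01, 1605 were called for ATRA against DMSO and 2126 for ATRA against EB (3673 as reported). Median centring moved the share of called genes that were higher to 58.6% for ATRA against ES (47.9% as reported), 58.3% for DMSO against ES (47.2%) and 87% for DMSO against EB (71.8%), and quantile normalization to 57.7% for the last. The cause of these shifts was not tested.

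The labels do not say whether same-numbered arrays were paired. Deviations of same-numbered arrays from their group means correlated at 0.30, 0.51 and -0.07 for EB against ES. For ATRA against DMSO they correlated at 0.09, -0.04 and -0.01. What replicates 1 and 2 of EBs and ES cells had in common was not tested. With the replicate block, 2553 genes and 3 members were called for ATRA against DMSO, and 6848 genes and 5 members for EB against ES, Tet3 being added (0.23, adjusted p = 0.0357). Dnmt1 lost its call for DMSO against ES (adjusted p = 0.0648).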
